A study of Mus musculus with 8 samples.

Results

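The enzymes and scaffolds that make, destroy and read cyclic AMP were followed in N2A cells, an established mouse neuroblastoma line, after addition of HU210, an agonist of the cannabinoid 1 receptor. Members were defined by gene symbol and not by measured values: the numbered adenylyl cyclases, the phosphodiesterases of the PDE series, the catalytic and regulatory subunits of protein kinase A (PKA), the PKA inhibitors and the numbered A-kinase anchoring proteins. The rule found 50 of the 16980 genes in the table, namely 9 cyclases, 20 phosphodiesterases, 6 PKA subunits, 2 PKA inhibitors and 13 anchoring proteins. Cells were starved of serum for 16 h and then received 2 uM HU210 dissolved in DMSO or DMSO without drug for 2, 4, 6 or 8 h, and each of the 8 conditions has 1 mRNA library. Every library was made from RNA pooled from 2 to 3 independent experiments, so the spread between experiments cannot be read from it. The cells carry no transgene in the labels, and the receptor is their own.

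Cyclic AMP is made from ATP by adenylyl cyclases, which Gs stimulates and Gi inhibits. It binds the regulatory subunits of PKA and frees the catalytic subunits, while phosphodiesterases hydrolyse it and anchoring proteins hold PKA and phosphodiesterases together at membranes, organelles and the cytoskeleton. The cannabinoid 1 receptor couples mainly to Gi and Go, and so lies upstream of the cyclases in neurons.

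The values are FPKM, which allow levels to be compared between genes. Fragment counts are divided by transcript length in kilobases and by a library size, which the authors scaled by upper-quartile normalization. A gene was tested if it was listed in all 8 libraries with a mean of at least 1 FPKM, which held for 11306 genes and for 32 of the 50 members. Changes are given as log2 ratios of FPKM + 1, a scale that understates the change of genes with low values. Between 11328 and 11444 genes reached 1 FPKM in each library. Of 13 markers of sympathetic neuroblasts or neurons, 10 were tested. Hand2 lay between 70.5 and 108 FPKM, Stmn2 between 129 and 157 FPKM and Phox2a between 29.1 and 50.9 FPKM. Other markers of that list were low: Th lay between 1.75 and 2.25 FPKM and Dbh between 0.73 and 1.44 FPKM. The neurofilament genes Nefl and Nefm were listed in the 4 h libraries alone, at 0.0031 to 0.0076 FPKM, and Tubb3 was not listed. The summed markers of glia, fibroblasts, macrophages and endothelium stayed at or below 2.45 FPKM each. Both 4 h libraries stood apart from the rest. Across 10585 genes, their deviation from the mean of the 8 libraries followed GC content in opposite directions, with Spearman's rho of -0.48 for DMSO and 0.48 for HU210. GC-adjusted values, from which a smooth function of GC content and transcript length was subtracted, are given beside several results below. The subtraction was made at each time point, or per library where late and early libraries are compared.

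The phosphodiesterase Pde4d showed the widest range of all tested members, 4.96-fold between its lowest and its highest library. Both regulatory subunits of type II PKA, Prkar2a and Prkar2b, lay below DMSO in the HU210 library of 4 h and lay above it at 6 h and 8 h. The catalytic subunits and the type I regulatory subunits stayed within a 1.24-fold range over the 8 libraries. No member passed the tests across time points (limma, adjusted p under 0.05), and a difference at a single time point rests on 1 library against 1 and has no replicate check. In bulk RNA, fewer cells with a transcript and less of it per cell cannot be told apart.

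**Figure D1:**
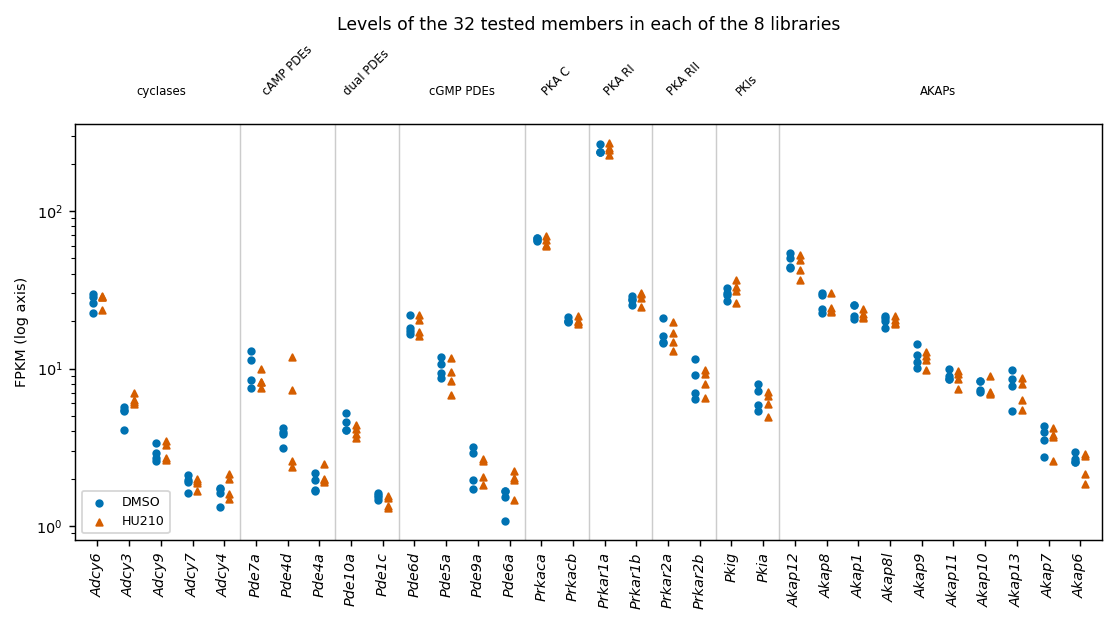
FPKM (log axis) of the 32 tested members, ordered by family and level, with a circle for each DMSO library and a triangle for each HU210 library (4 of each, 1 per time point). Prkar1a is the most abundant member in every library, and Pde4d is the gene whose HU210 triangles are spread most widely, from 2.39 to 11.9 FPKM.

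Among the cyclases, Adcy6 carried most of the message. It lay between 22.5 and 29.7 FPKM and made up 64.0% to 71.4% of the summed FPKM of the 9 cyclases in each library. Adcy6 belongs to the cyclases that calcium and Gi inhibit. Adcy3, first known from olfactory neurons, followed at 4.07 to 7.03 FPKM, then Adcy9, a widespread form insensitive to forskolin, at 2.58 to 3.49 FPKM. Adcy7 and Adcy4 stayed between 1.33 and 2.14 FPKM and overlapped in level. The other cyclases, Adcy2, Adcy5, Adcy8 and the soluble form Adcy10, were at or below 0.0609 FPKM in each library. Adcy2 was listed at 0 in 7 of the 8 libraries.

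Adcy3 was the only tested member whose HU210 and DMSO libraries did not overlap. It stood at 7.03, 6.29, 5.94 and 6.17 FPKM with HU210 at 2, 4, 6 and 8 h and at 5.69, 4.07, 5.45 and 5.41 FPKM with DMSO. Each HU210 library was above each DMSO library, in 1 of 32 members, and the same was seen in 0.371% of all tested genes. Its mean difference was 0.26 ± 0.094 (log2, SE; 95% interval 0.03 to 0.49) over the 4 time points, higher with HU210 at 4 of 4, and did not pass the test (limma, adjusted p = 1). Without the 4 h pair it was 0.18. An exon of Adcy3 overlaps an exon of Cenpo on the opposite strand, as one of Pde7a does with Gm16093. The study's materials name a stranded mRNA library kit, while its methods refer to earlier publications for how the libraries were made. Whether reads were assigned by strand is not given in the sources used here. Adcy9 was 2.62, 2.69, 3.49 and 3.28 FPKM with HU210 and 2.92, 3.35, 2.58 and 2.70 FPKM with DMSO. The groups overlapped, with HU210 below DMSO at 2 h and 4 h and above it at 6 h and 8 h. Adcy6 differed between HU210 and DMSO by 0.04 ± 0.073 (log2, SE; 95% interval -0.14 to 0.22; adjusted p = 1).

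The phosphodiesterases fall into those that hydrolyse cyclic AMP, those that hydrolyse both cyclic nucleotides and those that prefer cyclic GMP. Of the first kind, Pde7a, a high-affinity enzyme insensitive to rolipram, lay between 7.50 and 12.9 FPKM. Pde4d and Pde4a, of the rolipram-sensitive PDE4 enzymes, lay between 2.39 and 11.9 FPKM and between 1.67 and 2.47 FPKM. Pde4c, Pde7b and Pde8b stayed at or below 0.426 FPKM. A further PDE4 gene, Pde4b, was listed at 2 h alone, at 4.52 FPKM with HU210 and 4.97 FPKM with DMSO, and was not tested. Pde10a, at 3.65 to 5.19 FPKM, was the most abundant enzyme of dual specificity, ahead of the calmodulin-dependent Pde1c at 1.303 to 1.61 FPKM. Among the genes of the cyclic GMP group, Pde6d lay between 16.2 and 21.9 FPKM. Its product is a chaperone of prenylated proteins, named for its copurification with the photoreceptor enzyme. The cyclic GMP hydrolase Pde5a lay between 6.83 and 11.8 FPKM and Pde9a between 1.72 and 3.20 FPKM.

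Pde4d stood at 2.60, 2.39, 11.9 and 7.32 FPKM with HU210 at 2, 4, 6 and 8 h and at 3.82, 4.22, 3.15 and 3.94 FPKM with DMSO. The 6 libraries other than HU210 at 6 h and 8 h ran from 2.39 to 4.22 FPKM, so the late HU210 libraries lay above all of them, by 2.81-fold at 6 h and 1.73-fold at 8 h over the highest. Such a separation was seen in 2 of 32 members and in 4.09% of all tested genes, and the reverse, both libraries below the other 6, in 0 members and 1.03%. The second of these members was Pde6a, a photoreceptor subunit that stood at 2.22 and 2.02 FPKM in the late HU210 libraries and at 1.08 to 1.97 FPKM elsewhere. Against the DMSO library of the same time, Pde4d was 0.680 times as high at 2 h, 0.566 times at 4 h, 3.76 times at 6 h and 1.86 times at 8 h. On the log2 scale these are -0.42, -0.62, 1.63 and 0.75. At 6 h it ranked 5 from the top of the 11306 genes and at 8 h it ranked 69. The gene lies on chromosome 13 at 109240142 to 110743669 on the plus strand (mm9).

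The difference between the late (6 h and 8 h) and the early (2 h and 4 h) effect of HU210 on Pde4d was 1.71 ± 0.28 (log2, SE; 95% interval 1.07 to 2.36). It did not pass the correction over all genes (limma, adjusted p = 0.173), which ranged from 0.0811 to 0.691 over the alternatives. Leaving out a time point moved the estimate between 1.28, without 6 h, and 2.15, without 8 h. Without the 4 h pair it was 1.61, and the GC-adjusted value was 1.55. The RefSeq table holds 1 promoter window for Pde4d.

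**Figure D2:**
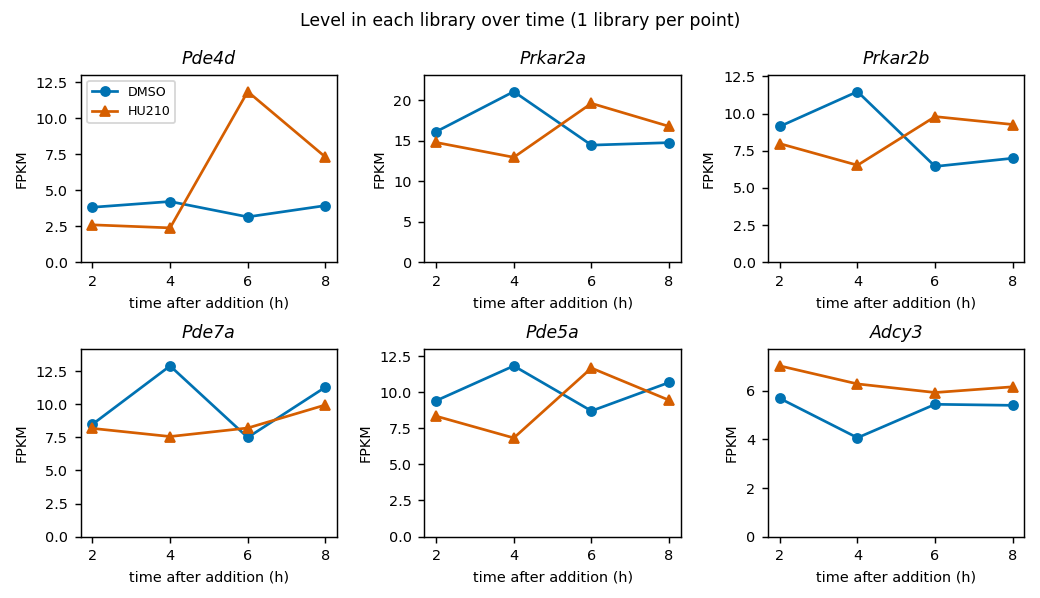
FPKM against time for 6 members, with 1 library per point, circles for DMSO and triangles for HU210. Pde4d lies far above its DMSO course at 6 h and 8 h, the lines of Prkar2a and Prkar2b cross between 4 h and 6 h, and Adcy3 keeps its HU210 line above its DMSO line.

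Pde4d also took a varying part of the phosphodiesterases specific for cyclic AMP. It made up 19.4% to 26.1% of their summed FPKM in 6 libraries. With HU210 the share was 52.4% at 6 h and 36.5% at 8 h. Pde4b and Pde8a belong to the same kind but are not in the sum, so the shares are of an incomplete set. The sum itself was 22.6 FPKM with HU210 and 13.3 FPKM with DMSO at 6 h, and Pde4d accounted for 8.71 of the 9.31 FPKM between them. At 4 h the order was the opposite, 12.3 FPKM with HU210 and 19.2 FPKM with DMSO, and most of that gap lay in Pde7a. Without Pde4d the sums at 6 h were 10.8 FPKM with HU210 and 10.2 FPKM with DMSO.

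**Figure D3:**
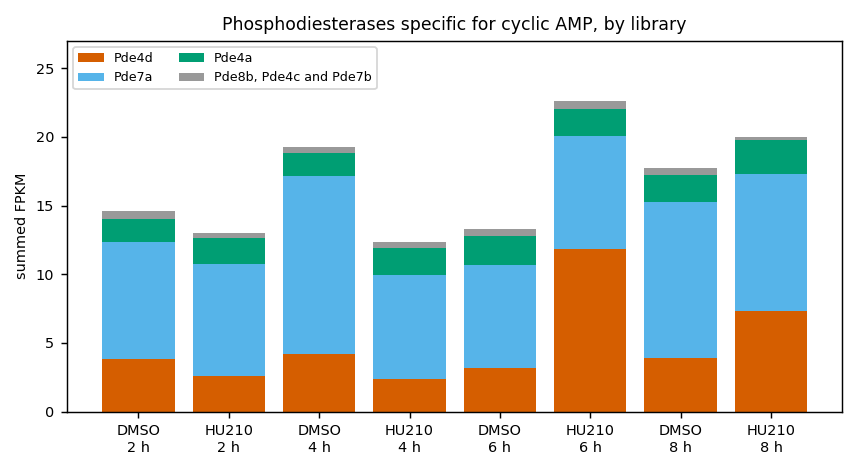
Summed FPKM of the phosphodiesterases specific for cyclic AMP in each of the 8 libraries, stacked by gene. Pde4b is left out because it was listed at 2 h alone, and Pde8a was not analysed. The Pde4d share is largest with HU210 at 6 h (52.4%) and 8 h (36.5%), and the Pde7a block is tallest with DMSO at 4 h.

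Pde7a stood at 8.18, 7.57, 8.21 and 9.96 FPKM with HU210 and at 8.49, 12.9, 7.50 and 11.3 FPKM with DMSO. The groups overlapped, and the DMSO library at 4 h was the highest of the 8. Pde5a stood at 8.34, 6.83, 11.7 and 9.44 FPKM with HU210 and at 9.41, 11.8, 8.70 and 10.7 FPKM with DMSO. Here too the groups overlapped, and the lowest and the highest library were the 2 of 4 h. Referred to all 4 DMSO libraries (their mean) rather than to DMSO at 4 h alone, the log2 change at 4 h was -0.34 for Pde7a (-0.70 as paired) and -0.50 for Pde5a (-0.71 as paired), below 1.5-fold for both.

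Pde9a, the enzyme of highest affinity for cyclic GMP, separated by time. It stood at 3.20, 2.93, 1.72 and 1.97 FPKM with DMSO and at 2.59, 2.65, 2.06 and 1.81 FPKM with HU210 at 2, 4, 6 and 8 h. All 4 late libraries were below all 4 early ones, in 1 of 32 members and in 2.2% of all tested genes. The mean of the late libraries was lower by a log2 difference of -0.41 ± 0.081 (SE; 95% interval -0.59 to -0.22), without passing the correction (limma, adjusted p = 0.489). The reverse separation, late above early, was seen in 2 of 32 members, Pde4a and the muscle and neuronal anchor Akap6, and in 3.24% of all tested genes. Pde4a was 1.67 to 1.9557 FPKM early and 1.9575 to 2.47 FPKM late, so its ranges almost touched. Akap6 was 1.86 to 2.56 FPKM early and 2.67 to 2.97 FPKM late.

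PKA was the most abundant part of the system. Prkar1a, the ubiquitous type I regulatory subunit, lay between 228 and 271 FPKM and held 35.5% to 38.2% of the summed FPKM of all members listed throughout. The catalytic subunit Prkaca lay between 60.1 and 69.3 FPKM and its paralogue Prkacb between 19.1 and 21.4 FPKM. Prkar1b, the neuronal type I subunit, lay between 24.5 and 30.2 FPKM. The type II subunits Prkar2a and Prkar2b lay lower, between 12.97 and 21.1 FPKM and between 6.45 and 11.5 FPKM. Summed, regulatory subunits exceeded catalytic subunits 3.29-fold to 3.80-fold in each of the 8 libraries. An exon of Prkar1b overlaps an exon of another annotated gene, Gm15672, on the same strand.

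The short promoter windows of the PKA genes are shown because cyclic AMP response elements, the sites of the CREB family, are the best known DNA elements of this pathway. The windows are those of RefSeq on GRCm38.p6, a different build from the mm9 of the expression files, and run from 250 bases before to 50 bases after a start site. The table matched 41 of the 50 members, with 84 windows. The whole element, TGACGTCA (its own reverse complement), was found in 1 member, Prkar1a, 49 bases before a start site and 38 bases after another. It was found in 2.38% of the 84 windows of members, both of Prkar1a, and in 1.79% of all 32851 windows. The 5-base core, TGACG or its reverse complement CGTCA, which the whole element contains, was found in 20.2% of the members' windows and in 20.8% of all windows. By gene, 15 of 41 members and 23.0% of all genes had a core in at least 1 window, and members had 2.05 windows on average against 1.22. Capitals mark the element or the core below. Each line runs 5′ to 3′ on the strand of the gene.
Prkar1a, chr11:109650889-109650918, plus strand: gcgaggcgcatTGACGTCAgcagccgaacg
Prkar2a, chr9:108692127-108692156, plus strand: cgcggccgcgtgCGTCAcaacccgggcgcc
Prkaca, chr8:83972960-83972989, plus strand: gggctgcgggggCGTCAcggacagaggact
Prkacb, chr3:146813031-146813060, minus strand: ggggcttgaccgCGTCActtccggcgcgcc
Prkar1b, chr5:139150033-139150062, minus strand: tagagggcggagTGACGggcaggaggacga
Both windows of Prkar2b and the 1 window of Pde4d held neither motif, and sequence outside the windows was not searched. A match is a description of the letters in the window and was set against no binding data.

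Prkar1a, the gene with the whole element, stood at 228, 242, 252 and 271 FPKM with HU210 and at 237, 266, 237 and 238 FPKM with DMSO. The groups overlapped, and the log2 difference over the 4 time points was 0.02 ± 0.089 (SE; 95% interval -0.20 to 0.24; limma, adjusted p = 1).

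Prkar2b, the type II subunit common in brain and fat, stood at 7.98, 6.53, 9.80 and 9.27 FPKM with HU210 and at 9.14, 11.5, 6.45 and 6.998 FPKM with DMSO. The groups overlapped: HU210 was lower at 2 h and 4 h and higher at 6 h and 8 h. Prkar2a, the widespread type II subunit, stood at 14.8, 12.97, 19.6 and 16.8 FPKM with HU210 and at 16.1, 21.1, 14.5 and 14.8 FPKM with DMSO. It showed the same order at each time point, with DMSO at 4 h the highest of the 8 libraries. On the log2 scale the differences were -0.18, -0.73, 0.54 and 0.36 for Prkar2b and -0.12, -0.66, 0.42 and 0.17 for Prkar2a at 2, 4, 6 and 8 h. Relative to the mean DMSO level they were -0.05, -0.31, 0.21 and 0.14 for Prkar2b and -0.14, -0.32, 0.24 and 0.03 for Prkar2a, all under 1.5-fold.

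The late effect minus the early effect of HU210 was 0.90 ± 0.19 for Prkar2b and 0.68 ± 0.20 for Prkar2a (log2, SE), with limma's adjusted p = 0.173 and adjusted p = 0.205. Without the 4 h pair these fell to 0.62 and 0.41. GC-adjusted, they were 0.59 and 0.55. The ratio of type I to type II FPKM ran from 9.0 with DMSO at 4 h to 13.9 with HU210 at 4 h, and was 12.7 with DMSO and 9.58 with HU210 at 6 h.

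The catalytic subunits varied least of the tested members. Prkaca differed by at most 1.15-fold and Prkacb by at most 1.12-fold between any of the 8 libraries. Of the heat-stable PKA inhibitors, Pkig lay between 26.0 and 36.5 FPKM and Pkia between 4.95 and 7.93 FPKM, and Pkig held 80.3% to 86.9% of their sum. Pkia, the form of muscle and brain, stood at 6.67, 4.95, 7.09 and 5.94 FPKM with HU210 and at 7.93, 7.18, 5.39 and 5.90 FPKM with DMSO. The groups overlapped. Its late minus early drug effect of 0.51 ± 0.21 (log2, SE; adjusted p = 0.290) was 0.17 when GC-adjusted.

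The anchoring proteins were led by Akap12 (gravin), a scaffold at the plasma membrane, at 36.5 to 54.1 FPKM. It held 26.2% to 32.5% of the summed FPKM of the 13 anchors. The nuclear anchor Akap8, the mitochondrial anchor Akap1 and Akap8l, a relative of Akap8, followed at 22.7 to 30.3, 20.7 to 25.4 and 18.1 to 21.6 FPKM. The centrosomal and Golgi anchor Akap9 lay between 9.84 and 14.3 FPKM. Akap11, Akap10 and Akap13 lay between 5.35 and 9.97 FPKM, and Akap7 and Akap6 between 1.86 and 4.30 FPKM. Akap3, Akap5 and Akap14 stayed at or below 0.751 FPKM and were not tested. Akap5 anchors PKA at synapses and Akap3 in sperm.

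Akap12 stood at 42.4, 36.5, 52.4 and 48.6 FPKM with HU210 and at 43.5, 54.1, 43.8 and 50.6 FPKM with DMSO. The groups overlapped, and the lowest and the highest library were again the pair of 4 h. Its log2 changes of -0.03, -0.56, 0.25 and -0.05 at 2, 4, 6 and 8 h did not reach 1.5-fold, and the value at 4 h was -0.47 when GC-adjusted. Akap13 was higher late than early by 0.38 ± 0.14 (log2, SE; limma, adjusted p = 0.650), with overlap between 5.35 to 8.57 FPKM early and 7.72 to 9.80 FPKM late. The Akap13 value was 0.18 without 2 h, 0.57 without 4 h and 0.23 when GC-adjusted. Akap8 was lower late by a log2 difference of -0.24 ± 0.10 (SE; adjusted p = 0.676), or -0.14 without 2 h. Akap7, 3.78, 2.59, 4.22 and 3.702 FPKM with HU210 and 4.30, 3.96, 3.54 and 2.75 FPKM with DMSO, had a late minus early drug effect of 0.57 ± 0.23 (log2, SE; adjusted p = 0.288), or 0.25 when GC-adjusted.

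Counted over the members, differences of at least 1.5-fold between the HU210 and the DMSO library of a time point were few. At 2 h no member reached it (0 of 32 in either direction), beside 0.504% of all tested genes upward and 1.45% downward. At 4 h, 5 members were lower with HU210 (Pde4d, Pde5a, Pde7a, Prkar2a and Prkar2b) and 0 higher, beside 8.69% of genes downward and 2.77% upward. At 6 h Pde4d was the 1 member past the fold, upward, beside 1.73% of genes upward and 0.637% downward. At 8 h Pde4d was again the 1 member, upward, beside 1.17% of genes upward and 0.557% downward. The median log2 change of the members was -0.04, -0.21, 0.09 and 0.03 at 2, 4, 6 and 8 h, beside -0.05, -0.08, 0.06 and 0.04 over all tested genes. With all 4 DMSO libraries (their mean) as reference, and separately in the GC-adjusted values, Pde4d at 6 h and 8 h was the only member past 1.5-fold.

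**Figure D4:**
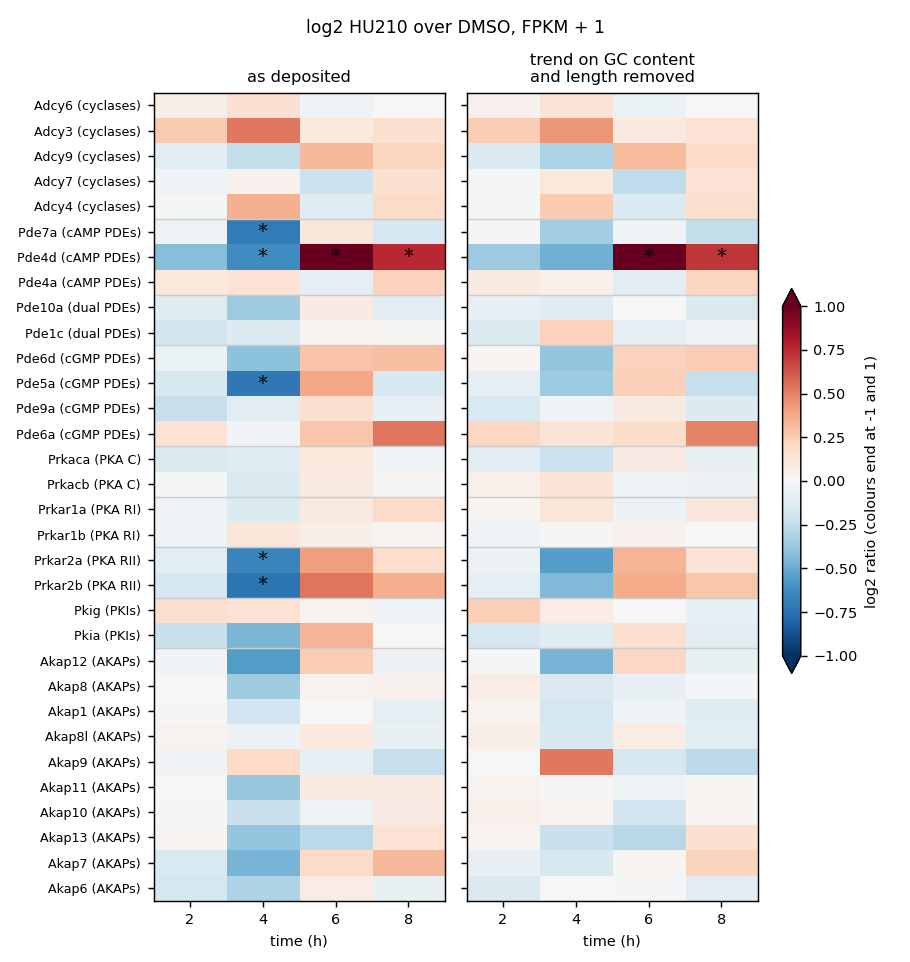
Log2 ratio of HU210 to DMSO (FPKM + 1) for each of the 32 tested members and 4 time points, as deposited (left) and GC-adjusted (right). Red is higher with HU210, blue lower, and an asterisk marks a difference of at least 1.5-fold. The 5 asterisks at 4 h are absent on the right, where those of Pde4d at 6 h and 8 h remain.

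The changes at 4 h moved with GC content, in members as in other genes. Over 10585 genes, Spearman's rho between GC content and the log2 change was 0.17, 0.53, -0.30 and -0.15 at 2, 4, 6 and 8 h. Over the 32 tested members, whose points share the same libraries, it was 0.49, 0.58, -0.26 and 0.14. At 4 h the median log2 change was -0.36 over the 13 members under 48% GC and -0.11 over the other 19. Pde5a, Pde7a and Prkar2b have 43.7%, 43.9% and 44.1% GC. Their GC-adjusted log2 changes at 4 h were -0.36, -0.35 and -0.44. Pde4d and Prkar2a have 49.8% and 50.7% GC, and stood at -0.48 and -0.55 when GC-adjusted. What else differed between the 4 h libraries was not tested.

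**Figure D5:**
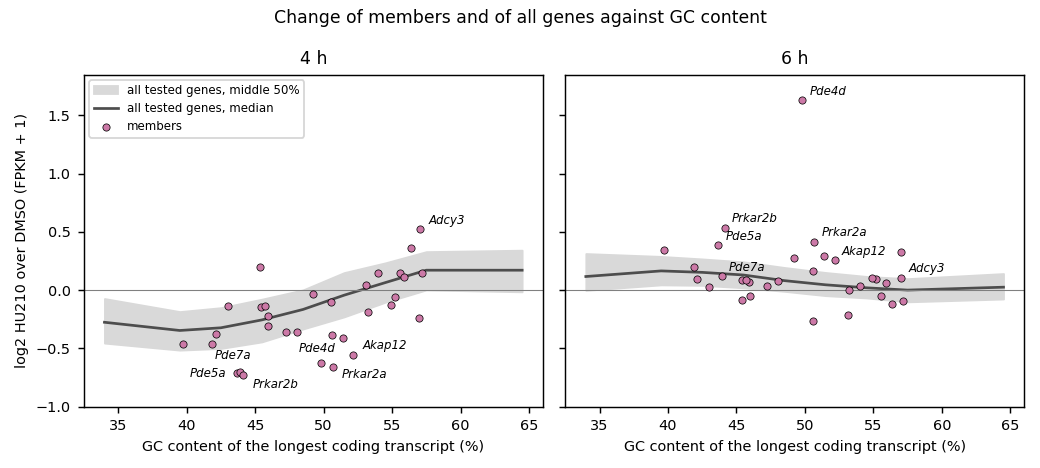
Log2 ratio of HU210 to DMSO (FPKM + 1) at 4 h and 6 h against the GC content of each gene's longest coding transcript. Points are the 32 tested members, the line is the median and the band the middle 50% of all tested genes with a known GC content. At 4 h the line climbs from -0.35 to 0.17 and most members under 48% GC lie below 0. At 6 h the line is flatter and Pde4d stands apart at 1.63.

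In the fits across libraries (limma), 0 of 32 members and 0.0% of all tested genes passed an adjusted p of 0.05 in each of the 3 comparisons: HU210 against DMSO over the 4 time points, late against early libraries, and the drug effect late against early. At an unadjusted threshold of 0.05, the first comparison held 1 member (Adcy3) and 1.31% of all tested genes. The second held 4 members (Pde9a, Akap13, Akap6 and Akap8) and 7.21%. The third held 8 members (Pde4d, Prkar2b, Prkar2a, Pde6d, Adcy9, Akap7, Pkia and Pde5a) and 15.8%. No tool other than limma was run here. HU210 was below DMSO at 2 h and 4 h and above it at 6 h and 8 h for 11 of 32 members, against 25.1% of all tested genes, and no member had the opposite order, against 5.22%. In the GC-adjusted values, 5 members kept that order (Adcy9, Akap7, Pde4d, Prkar2a and Prkar2b), against 12.7% of 10585 genes. The median drug effect late minus early was 0.21 in members and 0.12 over all tested genes, and 0.03 and -0.02 when GC-adjusted.

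Other genes of the pathway were taken from fixed lists. Of the receptor and upstream G proteins, 7 of 8 were tested, and 0 passed the test in either direction in the 3 comparisons. Gnas, the stimulatory subunit, was by far the most abundant, between 535 and 707 FPKM. The inhibitory subunits Gnai2 and Gnai3 lay between 65.3 and 77.4 FPKM and between 29.9 and 50.8 FPKM. Gnao1, the subunit of Go, lay between 40.7 and 51.1 FPKM. Cnr1, the cannabinoid 1 receptor, stood at 15.5, 18.3, 27.9 and 20.8 FPKM with HU210 and at 17.3, 26.96, 20.2 and 24.7 FPKM with DMSO, with overlap between the groups. Gnai3 at 4 h, with a log2 change of -0.75, was the only one past 1.5-fold, and GC-adjusted it stood at -0.43. The median late minus early drug effect of the 7 genes was 0.31 (smallest adjusted p = 0.222).

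Of other receivers of cyclic AMP, 7 of 9 were tested and 0 passed. They were Rapgef3 (Epac1), the Popeye-domain proteins Bves, Popdc2 and Popdc3 and the cyclic-nucleotide-gated pacemaker channels Hcn2, Hcn3 and Hcn4. At 4 h Hcn2 was lower with HU210 (log2 -0.68) and Hcn3 higher (0.60), past 1.5-fold in opposite directions. GC-adjusted, these were -0.81 and 0.48, and relative to the mean DMSO level -0.32 and 0.25, so that Hcn3 was under 1.5-fold in both and Hcn2 in the latter. Hcn2 was 11.03 FPKM with HU210 and 18.3 FPKM with DMSO at that time, and Hcn3 was 8.18 and 5.04 FPKM. Of the anchors of PKA outside the numbered series, 9 of 11 were tested and 0 passed. Map2, the dendritic microtubule protein that binds type II PKA, had a late minus early drug effect of 0.70 (log2; adjusted p = 0.173). The Golgi anchor Acbd3 had one of 0.86 (adjusted p = 0.190) and a log2 change of -0.82 at 4 h, past 1.5-fold. The latter was -0.57 when GC-adjusted and -0.36 relative to the mean DMSO level, both under 1.5-fold.

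The 18 members that were not tested are accounted for as follows. Adcy2, Adcy5, Adcy8, Adcy10, Pde1a, Pde1b, Pde2a, Pde4c, Pde6b, Pde6c, Pde7b, Pde8b, Pde11a, Akap3, Akap5 and Akap14 were listed in all 8 libraries with means from 0.0004 to 0.622 FPKM. Pde3a was listed in 6 libraries, at 0.0039 to 0.0377 FPKM, and Pde4b in 2. Of the tested members not described above, Akap1, Akap8l, Akap9, Akap10, Akap11, Pde1c, Pde10a and Prkar1b had log2 changes between -0.38 and 0.20 at every time point. Pde6d, 17.2, 16.2, 20.5 and 21.7 FPKM with HU210 and 18.0, 21.9, 16.6 and 17.4 FPKM with DMSO, had a late minus early drug effect of 0.53 ± 0.16 (log2, SE; adjusted p = 0.208), 0.36 without the 4 h pair and 0.43 when GC-adjusted.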

How the data were processed

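Each of the 8 libraries holds mRNA of N2A cells, pooled by the authors from 2 to 3 experiments. Per the labels and methods, reads were mapped to mm9 with TopHat2 2.0.8, Bowtie2 2.1.0 and SAMtools 0.1.7 and quantified with Cufflinks and Cuffdiff (upper-quartile normalization, multiread and fragment bias correction). The authors deposited FPKM + 1, from which 1 was subtracted. The study sequenced each library on a lane of its own and states the reads per library in its methods, but FPKM hold no counts, so the reads behind each value are not known here. Deposited columns with the authors' log2 changes, p-values and q-values, and their table of called genes, were not used. Log2(FPKM + 1) was fitted with limma 3.58.1 in R 4.3.3 (moderated with an intensity trend, Benjamini-Hochberg over 11306 genes), with time point and drug, drug and late or early time, or their interaction. The interaction and late terms treat libraries at adjacent times as replicates. Single time points were compared at 1.5-fold with no test. GC content and length came from the longest GENCODE vM1 coding transcript (93.6% of tested genes). For the GC-adjusted values their loess trend (span 0.3) was subtracted from the drug difference of each time point. For late against early libraries it was instead subtracted per library, from the deviation of each library from the mean of the 8. In simulated data with these 11306 genes, 50 genes were changed per size. Changes of log2 0.5 were called in 34%, 44% and 2% of changed genes in the 3 fits. Those of log2 1.0 were called in 70%, 84% and 56%, with 4, 8 and 10 false calls. The simulated errors were independent between genes and libraries, and each change had a fixed size along the fitted term. Errors shared across genes, such as the GC trend, were not simulated. The percentages are therefore not the power in the real libraries. Values are named for each member past 1.5-fold or an unadjusted 0.05 and for each family's leading member. Members and lists were chosen with earlier results of these data known. Adcy1, Pde3b, Pde8a, Pkib, Akap2 and Akap4 were not analysed here.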

Additional observations from a re-analysis of the deposited data

How the results depend on the processing

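With 1 pooled library per condition, the limma p-values measure a spread over time points and not between experiments. In the first fit it is the spread of the drug difference over the 4 time points. In the interaction it is the spread between libraries of neighbouring times. In the late against early fit, a drug effect that differs between the periods adds to that spread. The number of reads behind each FPKM is not known here. No member was called in any of the 3 fits under any alternative tried. Over all genes, 0 calls became 1 for late against early libraries with GC-adjusted values. For the drug effect late against early, the count became 4 with a mean of at least 0.1 FPKM and 7 with no filter, and leaving out a time point gave 0 to 1 (1 without 6 h). The cause was not tested. The number of members past 1.5-fold at any time point was 5, and it was 8 with a pseudocount of 0.1 (Adcy3, Akap7 and Pde6a were added), 1 with the mean of the 4 DMSO libraries as reference, 1 with GC-adjusted values and 13 at 1.3-fold. The matching counts over all tested genes at any time point were not made. At 4 h, 11 of 32 members were lower and 1 higher by 1.3-fold, beside 2250 lower and 1014 higher of 11306 genes. The HU210 and DMSO libraries were paired by time point in the first fit, and without that pairing it still called 0 genes; the libraries carry no replicate numbers.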

Other observations

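CREB factors and genes known to carry cyclic AMP response elements lie downstream of PKA. Of the factors and coactivators, 8 of 8 were tested and 0 passed in the 3 comparisons (limma). Creb1 stood at 14.6, 14.1, 12.4 and 12.2 FPKM with HU210 at 2, 4, 6 and 8 h and at 15.3, 20.2, 12.6 and 18.0 FPKM with DMSO. It was below DMSO at 4 of 4 time points (mean log2 difference -0.27, adjusted p = 1). The log2 differences were -0.06, -0.49, -0.01 and -0.53, so those at 2 h and 6 h were small. GC-adjusted, they were -0.02, -0.06, -0.17 and -0.63. Atf1, of the same list, was above DMSO at 4 of 4 time points, by log2 0.28, 0.26, 0.02 and 0.31. GC-adjusted, the Atf1 values were 0.37, 0.50, -0.13 and 0.22. Of the 8 genes, 3 had a mean difference above 0 and 5 below, with a median of -0.01. The share of all tested genes on 1 side of DMSO at every time point was not counted. Of the genes known for the element, 12 of 16 were tested and 0 passed. Egr1, an immediate early gene, was past 1.5-fold at 2 h, with 36.8 FPKM with HU210 and 18.3 FPKM with DMSO, and at 8 h, with 32.2 and 18.9 FPKM. At 6 h Egr1 was 19.2 FPKM with HU210 and 27.04 FPKM with DMSO, the highest of its DMSO libraries. As paired, its order was the opposite of that of Pde4d at 6 h. The log2 change of Egr1 at 6 h was -0.47 as paired and -0.09 relative to the mean DMSO level. The median log2 change of the 12 genes was 0.09, 0.04, -0.05 and 0.18 at 2, 4, 6 and 8 h, beside -0.05, -0.08, 0.06 and 0.04 over all tested genes.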
